A study of Mus musculus with 4 samples.

Results

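The genes described here encode the machinery that copies the genome in S phase. They are 48 genes chosen by function, of 21755 protein-coding genes in the annotation. Of all protein-coding genes, 13824 had enough counts at a promoter to be compared, and all 48 members were among them. Accessibility was read from nuclei of mouse hepatocytes by scATAC-Seq, in which the Tn5 transposase cuts open DNA and a droplet barcode marks the nucleus of origin. The hepatocytes were freshly isolated from male C57BL/6J mice by collagenase perfusion of the liver, either undamaged (0 h) or at 48, 72 and 96 h after partial hepatectomy (PHx), surgery that takes away most of the liver. The sample labels give the mice as 10 to 12 weeks old, and no transgene or drug was used in any group. Each time point was represented by 1 library, so the time point and its library cannot be told apart, and no difference below has a replicate or a test. The single preparation of hepatocytes at 0 h and at 48 h was split between this assay and RNA sequencing, and whether animals were pooled at 72 and 96 h was not stated in the sources at hand.

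Replication is prepared in G1, when the origin recognition complex with Cdc6 and Cdt1 loads the MCM helicase onto DNA. In S phase the kinase Cdc7 with Dbf4 activates the helicase together with Cdc45 and GINS, primase and the replicative polymerases synthesize DNA behind it, and the sliding clamp PCNA, placed by replication factor C, holds the polymerases to their template. Most of these genes are transcribed under E2F factors, which are held back by retinoblastoma proteins in resting cells. Hepatocytes of an undamaged liver rarely divide, and after PHx they enter S phase within days.

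Short motifs were searched in the promoters, each on either strand. They were the E2F octamer, spelled TTTCGCGC, TTTGGCGC, TTTCCCGC or TTTGCCGC, the CCAAT box, spelled CCAAT, and the GC box, CHR element and TATA box given below. The windows were RefSeq promoters of build GRCm38.p6, from 250 bases before the start site to 50 after it, and 41 of the 48 members had an entry. Mcm4, Gins1, Gins2, Gins4, Prim2, Pole and Rfc2 had none. The upstream bases of the 5 members whose promoter counts differed by at least 1.5-fold between 48 h and 0 h are printed 5′ to 3′ on the strand of the gene. The peaks that were counted reach well beyond these bases. E2F octamers and CCAAT boxes are in capitals:
Pcna, chr2:132253181-132253430, minus strand: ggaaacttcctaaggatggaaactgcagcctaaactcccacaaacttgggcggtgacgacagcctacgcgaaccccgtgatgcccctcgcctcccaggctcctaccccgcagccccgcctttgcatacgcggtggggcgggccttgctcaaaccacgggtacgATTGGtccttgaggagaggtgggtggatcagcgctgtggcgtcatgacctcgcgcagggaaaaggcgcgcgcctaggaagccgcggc
Uhrf1, chr17:56303087-56303336, plus strand: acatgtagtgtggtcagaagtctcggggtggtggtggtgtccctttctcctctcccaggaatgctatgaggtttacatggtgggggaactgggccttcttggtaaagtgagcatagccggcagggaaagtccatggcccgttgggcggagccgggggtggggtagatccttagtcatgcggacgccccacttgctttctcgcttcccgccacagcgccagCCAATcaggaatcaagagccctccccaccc
Mcm6, chr1:128359706-128359955, minus strand: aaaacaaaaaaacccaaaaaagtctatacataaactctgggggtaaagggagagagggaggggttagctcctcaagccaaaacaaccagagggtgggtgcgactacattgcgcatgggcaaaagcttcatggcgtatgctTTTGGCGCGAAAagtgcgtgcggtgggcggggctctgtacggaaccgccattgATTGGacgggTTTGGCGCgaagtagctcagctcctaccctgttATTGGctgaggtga
Rrm2, chr12:24708004-24708253, plus strand: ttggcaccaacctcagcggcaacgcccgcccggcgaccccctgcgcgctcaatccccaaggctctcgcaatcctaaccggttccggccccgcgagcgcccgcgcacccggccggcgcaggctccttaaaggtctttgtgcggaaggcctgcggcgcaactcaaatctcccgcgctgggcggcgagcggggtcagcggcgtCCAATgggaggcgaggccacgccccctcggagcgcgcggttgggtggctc
Cdc45, chr16:18811973-18812222, minus strand: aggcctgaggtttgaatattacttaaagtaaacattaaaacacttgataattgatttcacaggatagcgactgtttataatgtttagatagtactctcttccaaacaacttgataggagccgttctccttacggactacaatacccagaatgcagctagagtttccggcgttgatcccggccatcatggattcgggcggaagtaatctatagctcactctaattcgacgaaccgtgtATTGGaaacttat
Mcm6, a subunit of the helicase, held 3 E2F octamers in this stretch, of which 2 overlap as TTTGGCGCGAAA, and the other 4 promoters held none. Each of the 5 held a CCAAT box. Over the full windows, 16 of 41 members (39.0%) held an E2F octamer, against 4.13% of 10615 protein-coding genes with a start in a 0 h peak. CCAAT was found in 24 of 41 members, against 38.0% of all, and the GC box GGGCGG in 32 of 41, against 66.3%. The CHR element, TTTGAA or TTTAAA, was found in 9 of 41, against 18.2%, and the TATA box, TATAAA, in 2 of 41, against 6.66%. Sites of different motifs may overlap. Base composition differed little, with a median GC share of 63.0% in members and 61.7% in all, and 24 and 21 CG dinucleotides per window. Among the members with an E2F octamer were Cdc6, Cdt1, Orc1, Orc3, Mcm3, Mcm5, Mcm6, Mcm7, Mcm8, Gins3, Pold1, Pold3, Pole2, Rfc3, Lig1 and Dnmt1. The median log2 ratio of promoter counts at 48 h was -0.02 for the 16 with an octamer (range -0.45 to 1.26) and -0.21 for the 25 without (-0.62 to 2.21), so the ranges overlapped over most of their length. A match describes letters in the window and not a bound site.

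Depth differed among the libraries and fell with time after PHx. Counts in peaks totalled 136949314 at 0 h and 15809769 at 96 h, with the other libraries between them, and 3224 to 4256 nuclei per library held at least 1000 counts. Promoter counts of the members came to between 20562 and 167226 per library. Peaks had been called in each library separately, with 77580 to 164113 peaks, so a count depends on how much DNA the peaks of that library cover. The summed promoter peaks of the members, each peak counted once, covered 131161 bp at 0 h, 178188 bp at 48 h, 110010 bp at 72 h and 64805 bp at 96 h. Between 27 and 60 barcodes were shared by any pair of libraries, at most 1.51% of the nuclei in the earlier of the pair. All 10 hepatocyte markers had counts in every library, at a sum of 4306 to 6438 CPM (counts per 1000000 counts of the kept nuclei). Endothelial markers summed to 197 to 309 CPM and Kupffer and myeloid markers to 24.7 to 88.0 CPM, with 2 to 5 of 7 at 0. Stellate markers summed to 76.1 to 155 CPM, cholangiocyte markers to 13.8 to 33.9 CPM and lymphocyte markers to 0.728 CPM or less, except at 48 h, where Cd79a alone gave 44.5 of 46.2 CPM. The part of other cell types in the values below was not tested beyond an alternative that left such nuclei out.

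Every member had an open promoter in every library, and 5 of 48 members differed at least 1.5-fold from 0 h at 48 h, 9 at 72 h and 14 at 96 h. Promoter counts here are those in peaks within 1 kb of any annotated TSS of the gene. All 48 members had such a peak in all 4 libraries, the undamaged liver included. With 0.5 CPM added to each value, the log2 ratio of promoter CPM to 0 h had a median over the members of -0.11 for 48 h, -0.07 for 72 h and 0.31 for 96 h. For all 13824 genes the corresponding medians were -0.16, -0.10 and 0.15. At 48 h, 4 members were at least 1.5-fold higher than at 0 h (8.33% of members, against 11.7% of all genes) and 1 was at least 1.5-fold lower (against 9.4%). At 72 h the counts of members were 3 higher (against 15.4%) and 6 lower (against 19.1%), and at 96 h they were 11 higher (against 21.4%) and 3 lower (against 16.8%). Centred on the median of all genes, the members at 72 h were 5 higher (against 18%) and 3 lower (against 15.2%). The shares of members past this fold were thus below or near those of all genes at every time point. Over the 3 later libraries 20 of 48 members reached this fold at least once (against 53.1% of all genes), and 27 of 48 differed by at least 1.5-fold between their lowest and highest library (against 66.4%). Set against the median of all genes at 96 h, Cdc7 (0.80), Mcm8 (0.71), Rfc3 (0.70) and Pole (0.60) of the 11 higher members stayed past 1.5-fold (against 13.9% of all genes), and the other 7 had centred log2 ratios of 0.44 to 0.57, under it. The promoter peaks of Mcm8 and Pole also hold start sites of Trmt6 and Pxmp2, so theirs are joint counts.

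**Figure D1:**
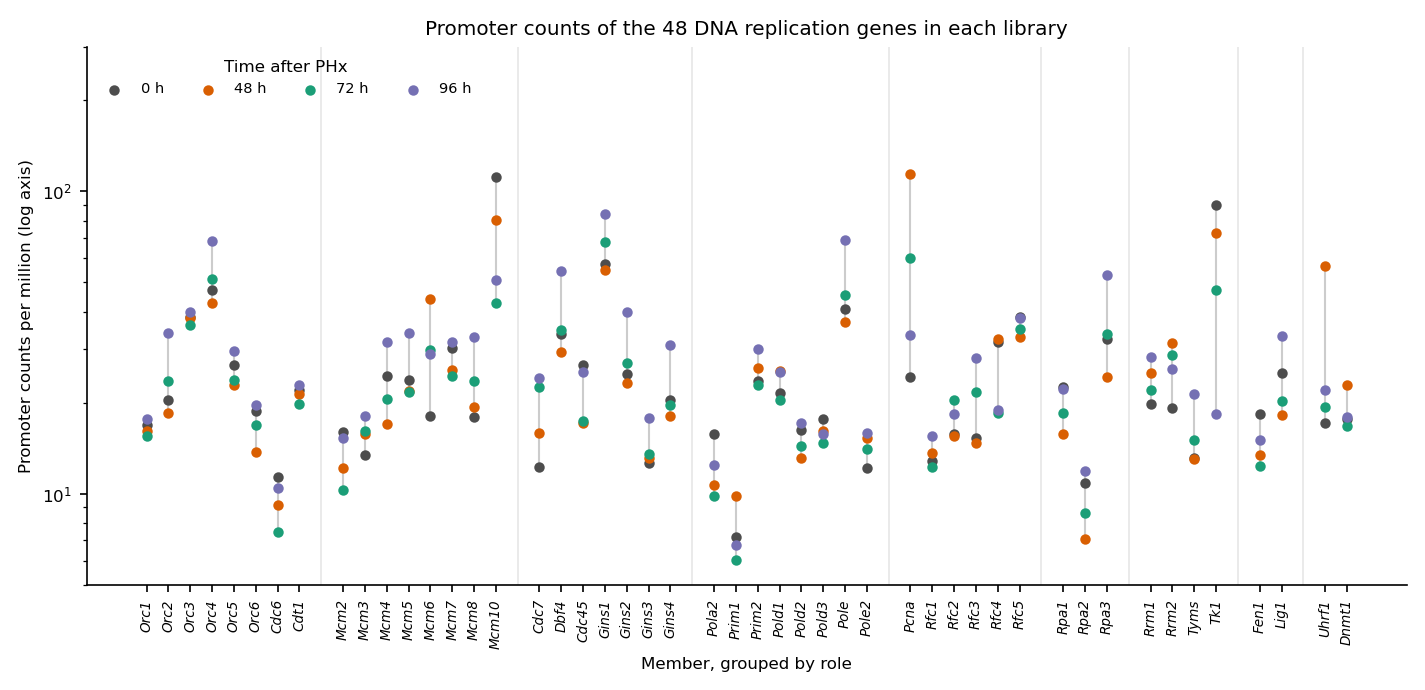
Promoter counts in CPM (log axis) of each of the 48 members, grouped by role; each point is 1 library, coloured by time after PHx, and the grey line spans the 4 libraries. Pcna rose from 24.3 CPM at 0 h to 114 CPM at 48 h and Uhrf1 from 17.1 to 56.7 CPM, while Tk1 went from 89.9 CPM at 0 h to 18.3 CPM at 96 h, and 27 of 48 members differ by at least 1.5-fold between their lowest and highest library, against 66.4% of all genes.

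Origin recognition and licensing genes showed little movement at 48 h. None of the 8 members of this role reached 1.5-fold in either direction at 48 or 72 h, and their median log2 ratio at 48 h was -0.14. Orc3, a subunit of the origin recognition complex, had the highest ratio of its role and held 38.3, 38.2, 36.0 and 40.0 CPM at 0, 48, 72 and 96 h. Its level was flat across the libraries. Orc6, the smallest subunit of that complex, had the lowest ratio and held 18.8, 13.7, 16.8 and 19.6 CPM. Orc6 was lowest at 48 h, at a log2 ratio of -0.43. Orc2 was the single member of this role past 1.5-fold, at 96 h, where its log2 ratio was 0.72, or 0.57 and under 1.5-fold after centring on all genes.

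Mcm6 separated from the rest of the MCM helicase. Mcm6 held 18.1 CPM at 0 h, 44.0 at 48 h, 29.9 at 72 h and 29.0 at 96 h, with all 3 libraries after PHx above the undamaged one. At 48 h it was 2.39-fold higher (log2 1.26, 95% counting interval 1.17 to 1.39). Its promoter peaks lengthened from 3504 bp to 8857 bp at the same time, to 3636 bp at 72 h and 1276 bp at 96 h, where its count stayed up on a shorter peak. Mcm2, a subunit used to label licensed and cycling cells, held 15.98, 12.1, 10.3 and 15.3 CPM, at least 1.5-fold lower at 72 h alone and not after centring on all genes (-0.51). The lowest of the role at 48 h was Mcm4, with 24.5, 17.0, 20.6 and 31.7 CPM, lowest at 48 h and highest at 96 h. Its peak also holds a start site of Prkdc. Mcm10, which joins the helicase when origins fire and is not part of the hexamer, held 112, 80.2, 42.6 and 51.0 CPM. It was 2.60-fold lower at 72 h and 2.18-fold lower at 96 h than at 0 h, while its promoter peaks shrank from 14974 bp at 0 h to 6360 and 4242 bp.

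Among the genes that fire origins, Cdc7 rose and Cdc45 was lower at the middle time points. Cdc7, the kinase that phosphorylates the loaded helicase, had 12.3 CPM at 0 h, 15.8 at 48 h, 22.5 at 72 h and 24.2 at 96 h. Centred on all genes, its log2 ratios were 0.51, 0.95 and 0.80 at 48, 72 and 96 h, with no further rise after 72 h. Its peak measured 1431, 1674, 1616 and 1100 bp, and its log2 ratio was 0.85 at 72 h and 0.95 at 96 h. Cdc45, which travels with the helicase, held 26.6, 17.1, 17.4 and 25.2 CPM and was the only member at least 1.5-fold lower at 48 h (log2 ratio -0.62, 95% counting interval -0.78 to -0.49). Its peak kept its length there, at 2147 bp and 2197 bp. The ratio was under 1.5-fold after centring on all genes (-0.46), in shared peaks (-0.55), with a pseudocount of 2 CPM (-0.58) and over the whole gene (-0.33), and at 72 h after centring (-0.50). That peak also holds a start site of Ufd1, the neighbouring gene, whose share of the counts cannot be separated. Of the 4 GINS genes, Gins2 and Gins4 were among the members at least 1.5-fold higher at 96 h, with Dbf4, the activating subunit of the Cdc7 kinase, and after centring on all genes these 3 were under it (0.52, 0.44 and 0.53).

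The polymerases and primase spread around no change, with a median log2 ratio of 0.00 at 48 h over 8 members. Prim1, the catalytic subunit of primase, was the highest at 48 h but had low values in all libraries, 7.18, 9.79, 6.03 and 6.76 CPM. Pola2, a subunit of the polymerase that starts each strand, was the lowest, with 15.8 CPM at 0 h and 10.7, 9.83 and 12.4 CPM afterwards. All 3 libraries after PHx were below the undamaged one for Pola2, and its peaks had shortened from 2167 bp to 971 bp at 72 h and 719 bp at 96 h. It was at least 1.5-fold lower at 72 h, but not after centring on all genes (-0.56). Pole, the catalytic subunit of the leading strand polymerase, exceeded 1.5-fold at 96 h (log2 ratio 0.75).

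Pcna had the widest change of all members at 48 h, and it lay in the clamp and clamp loader group, where the others moved little. Its promoter counts were 24.3 CPM at 0 h, 114 CPM at 48 h, 60.3 CPM at 72 h and 33.3 CPM at 96 h. The 48 h library was 4.63-fold above the 0 h library (log2 2.21, 95% counting interval 2.15 to 2.32), the 72 h library 2.46-fold, and the 96 h library lay closest to 0 h. In the undamaged liver a single peak of 1762 bp covered the start of the gene. At 48 h a single peak of 13782 bp ran from the promoter through the gene (chr2:132249162-132253314, minus strand) and on to Tmem230, the next gene, which has a start site within that peak. At 72 h the promoter peak was back to 1764 bp, with a second peak of 3775 bp over Tmem230 and the end of Pcna, and at 96 h a single peak of 1220 bp remained. With the gene start alone counted, the log2 ratio of Pcna at 72 h was 0.03, so its higher count at that time came from the second peak. Per kb of covered length, Pcna held 13.8 CPM at 0 h and 8.28 CPM at 48 h, a lower mean density over the longer peak. Rfc5, the lowest of the clamp loader subunits at 48 h, had 38.4, 33.1, 35.1 and 38.1 CPM and scarcely varied. Rfc4, another subunit, was at least 1.5-fold lower at 72 and 96 h, together with a fall of its covered length from 7024 bp to 2769 and 1418 bp. At 0 h 5402 bp of this lay in a peak across the end of the gene, 11027 to 16428 bp from its start, that overlaps Eif4a2. Per kb of covered length Rfc4 went the other way, with 4.53 CPM at 0 h, 6.69 at 72 h and 13.3 at 96 h.

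The 3 RPA genes, whose protein coats single-stranded DNA at the fork, all had their lowest value at 48 h. Rpa2 held 10.8, 7.10, 8.62 and 11.9 CPM and Rpa3 held 32.5, 24.3, 33.7 and 52.9 CPM. With the 0.5 CPM added, Rpa2 was under 1.5-fold in every library, but at 48 h (log2 ratio -0.58) only because of that addition. Rpa3 passed 1.5-fold at 96 h (log2 ratio 0.70) but not after centring on all genes (0.54). The median log2 ratio of the 3 at 48 h was -0.51, with no member past 1.5-fold.

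By promoter counts, nucleotide supply genes moved in opposite directions, which for Rrm2 depended on the peaks that were counted. Rrm2, the S phase subunit of ribonucleotide reductase, rose from 19.1 CPM at 0 h to 31.5 CPM at 48 h and stood at 28.8 and 25.8 CPM at 72 and 96 h, above the undamaged liver in all 3. Its log2 ratio at 48 h was 0.70 (95% counting interval 0.60 to 0.84), while its promoter peak grew upstream from 1531 to 4397 bp. At 0 h a separate peak of 2231 bp lay upstream, over 1 kb from the start site, on sequence that the 48 h peak took in. Over the whole gene and 2 kb upstream Rrm2 held 39.3 CPM at 0 h and 42.5, 34.6 and 34.5 CPM later, so by that count it was under 1.5-fold at 48 h (log2 ratio 0.11). Tk1, thymidine kinase of the salvage pathway, held 89.9, 72.8, 47.04 and 18.3 CPM and ended 4.82-fold lower at 96 h. Tk1 shares its long peak with a start site of the neighbouring gene Afmid, which encodes a liver enzyme of tryptophan breakdown. The promoter peaks at Tk1 covered 14890, 14487, 7557 and 2248 bp. Tyms, thymidylate synthase, was past 1.5-fold only at 96 h (log2 ratio 0.68, and 0.53 after centring on all genes).

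Neither of the nick closure genes reached 1.5-fold in any library at the promoter. Fen1, the flap endonuclease that trims Okazaki fragments, had promoter counts of 18.3, 13.5, 12.3 and 15.0 CPM, and DNA ligase Lig1 had 24.98, 18.2, 20.2 and 33.2 CPM. The promoter peak of Fen1 also holds a start site of Tmem258 and that of Lig1 a start site of Zswim9. When peaks over the whole gene and 2 kb upstream were counted, Fen1 had 120 CPM at 0 h and 89.5, 25.6 and 19.0 CPM later, from peaks of 20036 bp at 0 h and 1689 bp at 96 h. Most of these counts are not of Fen1 itself, since at 0 h a peak of 17994 bp that overlaps the end of the gene by 119 bp held 102 of the 120 CPM.

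Uhrf1 and Dnmt1, which copy DNA methylation onto the new strand, had peaks along the gene at 48 h that were not called at 0 h. Uhrf1, which finds half-methylated sites and recruits the methyltransferase, had 17.1 CPM at 0 h, 56.7 at 48 h, 19.4 at 72 h and 22.0 at 96 h. Only the 48 h library stood apart, 3.25-fold above 0 h (log2 1.70, 95% counting interval 1.62 to 1.84). Its peaks near start sites covered 2308, 14155, 2301 and 1878 bp. Most of the added counts lay in peaks of 8017 and 3482 bp that reach to within 1 kb of annotated start sites inside the gene, since with the 5′ start alone the log2 ratio at 48 h was 0.39. Dnmt1, the maintenance methyltransferase, had promoter counts of 17.6, 22.9, 16.7 and 17.9 CPM. Over the whole gene Dnmt1 had 19.8 CPM in 2 peaks at 0 h and 51.6 CPM in 17 peaks at 48 h, then 20.6 and 20.9 CPM, so this gene too was apart at 48 h alone.

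**Figure D2:**
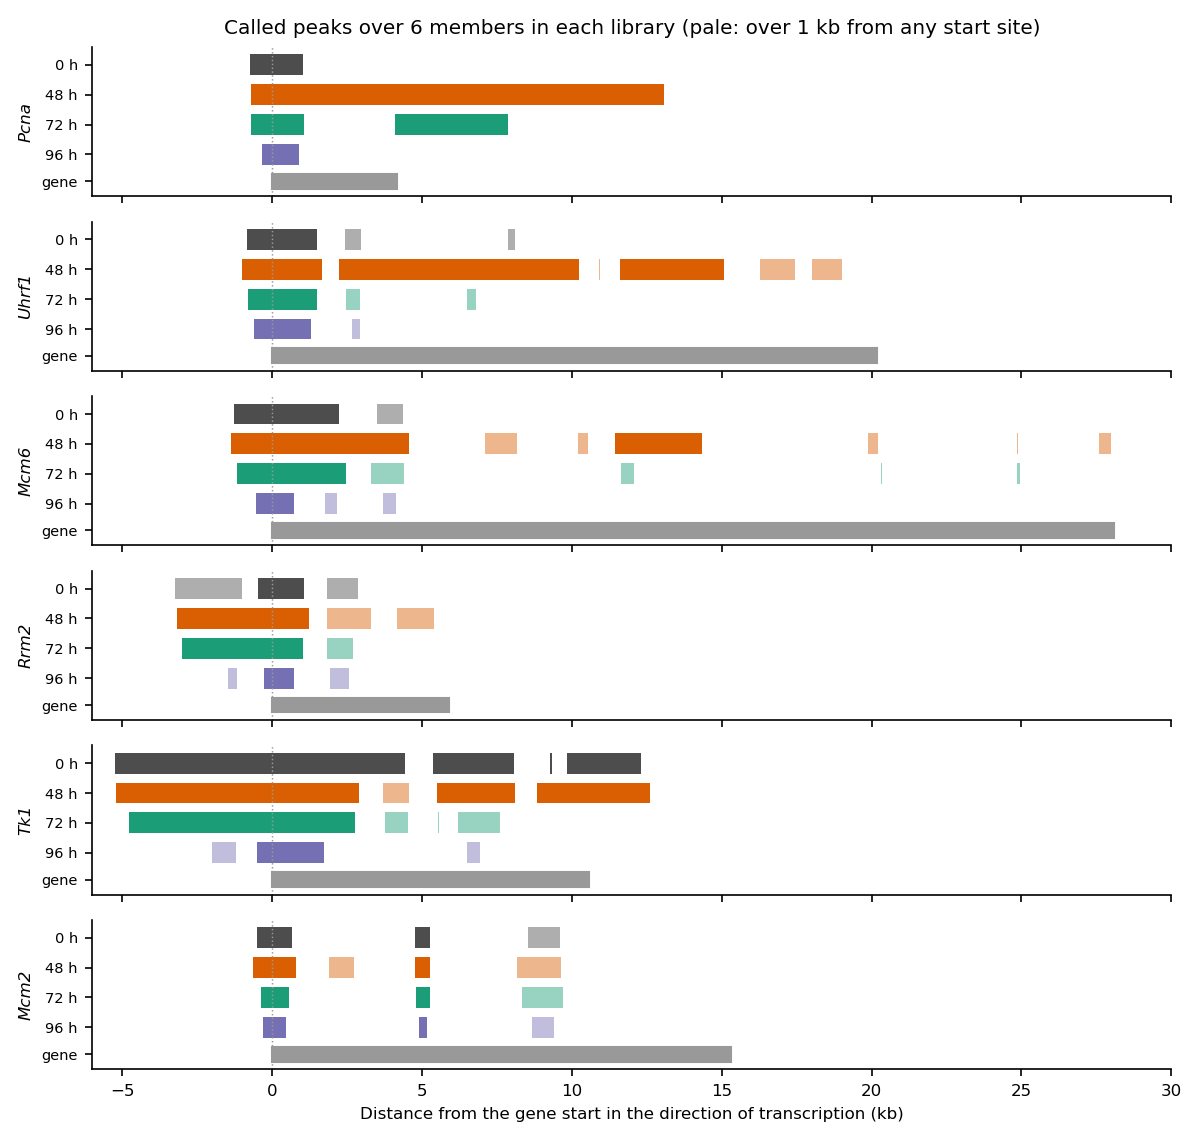
Called peaks (coloured bars, 1 line per library) over 6 members against the distance from the gene start in kb, with the gene in grey; pale bars are peaks more than 1 kb from any start site of the gene, which the promoter counts leave out. The Pcna peak reached 13782 bp at 48 h against 1762 bp at 0 h, Uhrf1 and Mcm6 gained peaks within the gene, the Rrm2 promoter peak took in an upstream stretch called separately at 0 h, Tk1 lost covered length with time, and Mcm2 had a pair of promoter peaks in every library.

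Counts and peak length moved together. Across the 48 members, the log2 ratio of promoter counts and that of covered length had a Pearson correlation of 0.87 at 48 h, 0.77 at 72 h and 0.75 at 96 h; the points share the same libraries, and genes are not independent replicates. Over all genes the coefficients were 0.86, 0.88 and 0.86. At 48 h, 34 of 48 members had a covered length that grew by at most 25% or shrank by at most 20%, and none of these was at least 1.5-fold higher, against 2.12% of all genes that kept their length. Per kb of covered length Mcm6, Pcna, Rrm2 and Uhrf1 fell below their 0 h density, at log2 ratios of -0.06, -0.73, -0.80 and -0.89. The lower counts of Tk1 at 72 and 96 h and of Mcm10 at 96 h also changed sign per kb, to 0.043, 0.43 and 0.69, as did the ratios of Pcna (-0.34) and Pola2 (0.47) at 72 h, where all genes had medians of 0.16 at 72 h and 1.09 at 96 h. Counts that fall outside a called peak are not in the files used here, so the level of these stretches at 0 h is unknown.

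**Figure D3:**
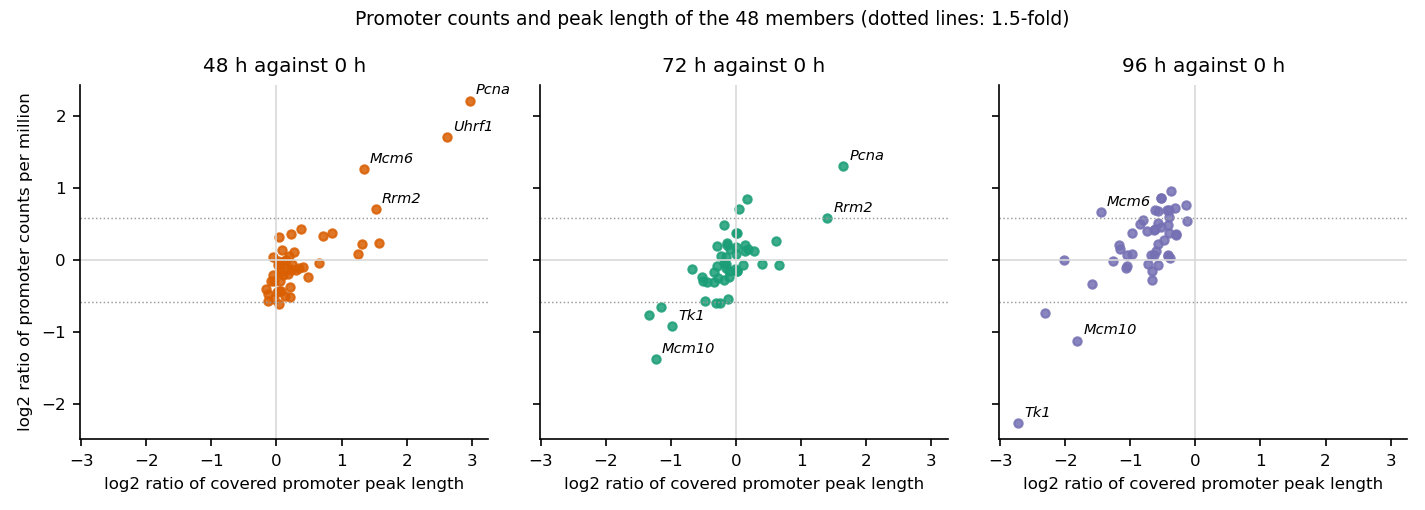
The log2 ratio of promoter CPM against the log2 ratio of covered peak length for the 48 members, 1 panel per time point, with dotted lines at 1.5-fold. The 4 members above the upper line at 48 h, Mcm6, Pcna, Rrm2 and Uhrf1, all lie to the right, and Tk1 and Mcm10 lie at the lower left at 72 and 96 h.

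Each member was also set beside the 50 promoters nearest to it in count and covered length at 0 h. The median difference of the members from these was 0.14 at 48 h on the log2 scale, 0.01 at 72 h and 0.06 at 96 h. At 48 h 32 of 48 members lay above the median of their own neighbours and 18 above their upper quartile, while 11 lay below their lower quartile. When the neighbours were matched on length in both libraries, the median difference at 48 h was 0.01, with 26 members above the median, 11 above the upper quartile and 13 below the lower quartile. Pcna remained 1.06 above its neighbours under that matching, Mcm6 0.41, Rrm2 0.31 and Uhrf1 0.28. Pcna, Mcm6 and Rrm2 were then above the upper quartile of their neighbours, and Uhrf1 was within the quartiles (1.11 to 1.82). For Pcna the neighbours themselves had a median log2 ratio of 1.15 and an upper quartile of 1.49, against its own 2.21.

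Over gene body and 2 kb upstream, Pcna, Uhrf1 and Mcm6 were again at least 1.5-fold higher at 48 h, Rrm2 was not, and 4 further members were. Median log2 ratios of the 48 members were -0.03, -0.05 and 0.15 at 48, 72 and 96 h, against -0.04, -0.02 and 0.08 for 15500 genes. At 48 h 7 members were at least 1.5-fold higher (against 13.6% of all genes) and 0 lower (against 7.19%). At 72 h these were 4 higher (against 19.8%) and 4 lower (against 16.2%), and at 96 h 10 higher (against 18.4%) and 4 lower (against 17.6%). The 7 genes at 48 h were Mcm3, Mcm6, Prim2, Pole2, Pcna, Uhrf1 and Dnmt1. Mcm3, a helicase subunit, held 13.4 CPM in 1 peak at 0 h and 22.9 CPM in 9 peaks at 48 h. Prim2, the larger subunit of primase, had 25.8 CPM in 2 peaks and 42.9 CPM in 18 peaks. Covered length grew more than the counts, so per kb Mcm3, Prim2 and Dnmt1 were lower over the gene at 48 h than at 0 h.

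The share of the gene body covered by peaks, outside 1 kb of any start site, was read for the 47 members with at least 1000 bp of such sequence. Pcna has too little and was left out. The median was 1.65% at 0 h, 6.16% at 48 h, 2.31% at 72 h and 0% at 96 h, whereas over 13062 genes it was 7.85%, 10.9%, 7.25% and 1.60%. At 48 h, 8 of 47 members gained at least 10 percentage points (17.0%, against 11.9% of all genes) and 1 lost as much (against 5.04%). At 72 h 1 member gained this much (against 4.41%) and at 96 h 0 did (against 0.0612%), while 4 and 7 lost it (against 16.1% and 34.1%). Uhrf1 was covered over 5.29% of its body at 0 h, 73.9% at 48 h, 5.47% at 72 h and 1.84% at 96 h. It was covered over most of its body at 48 h alone. Dnmt1 went from 1.37% to 27.8% and back to 2.93%, and Mcm3 from 0% to 25.1% and back to 2.20%. Rrm2 was at 25.3% at 0 h, 65.2% at 48 h, 20.6% at 72 h and 15.0% at 96 h. The others that gained were Gins2 (27.8% to 62.0%), Mcm6 (9.01% to 30.1%), Mcm2 (10.3% to 22.0%) and Mcm7 (0% to 14.3%).

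**Figure D4:**
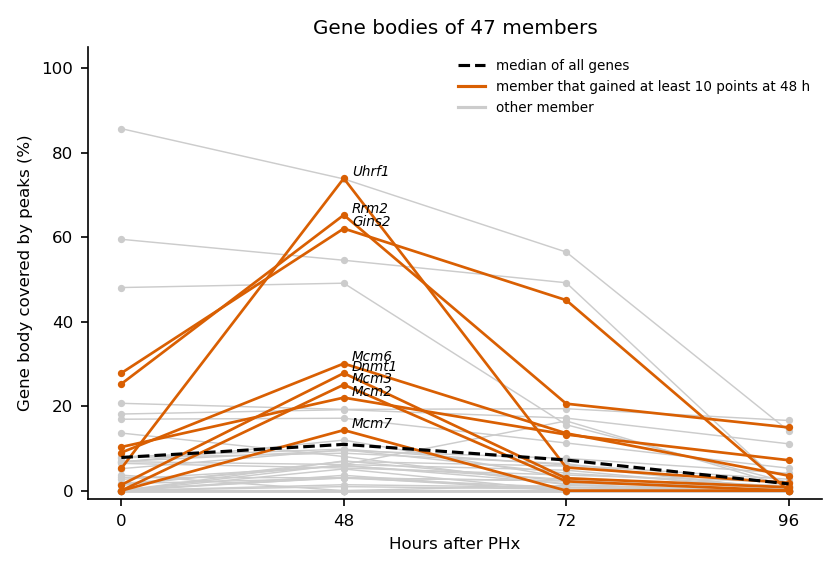
Share of the gene body covered by peaks (%) in each library for 47 members, with the median of all genes dashed. The 8 members in colour gained at least 10 percentage points at 48 h, with Uhrf1 from 5.29% to 73.9%, and fell again at 72 h.

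Whether these counts were spread evenly over nuclei was then examined. The measure was the variance over the mean of fragments per nucleus after allowing for depth, which is 1 for an even spread, and each member was set beside the 200 genes with the nearest total. Pcna stood at 1.97 at 48 h, against a 90th percentile of 1.36 among its neighbours, and at 1.19, 1.11 and 1.03 at 0, 72 and 96 h, under that percentile each time. Uhrf1 stood at 1.61 at 48 h against 1.21, and at 1.08, 1.09 and 1.08 in the other libraries. At 48 h the counts of both genes were thus spread less evenly over nuclei than those of genes with like totals. The other members above their percentile at 48 h, Mcm3, Mcm6, Prim2, Rrm2, Tk1 and Fen1, had values of 1.20 to 1.26. Of these, Mcm3 and Fen1 were above it at 0 h too, at 1.37 each, so theirs was not particular to 48 h. The fragments of Fen1 include those of the long peak that overlaps the end of the gene. In all, 8 of 48 members passed it at 48 h (16.7%, where 10% of genes do by construction), 7 at 0 h, 6 at 72 h and 0 at 96 h.

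Nuclei of the 48 h library were therefore classed by their counts in the peak over Pcna, after each had been thinned to 5000 counts. That peak of 13782 bp overlaps Pcna by 4153 bp and runs on over Tmem230, so the class is a joint score of both genes, and a Pcna count below means a count in it. Of 3023 nuclei deep enough, 2111 had 0 counts, 460 had 1, 280 had 2 and 172 had at least 3, of which 87 lay exactly at that limit. The classes are ranges of a score and not cell types. The class with at least 3 counts made up 5.69% (exact 95% binomial interval 4.89 to 6.58) at 48 h, 0.207% at 0 h, 1.81% at 72 h and 0.653% at 96 h, over Pcna peaks of 13782, 1762, 5539 and 1220 bp. Since the peaks differed in length, these shares were not compared further. Median depth before thinning was 16716.5 counts in nuclei with at least 3 Pcna counts and 14522 in those with none.

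In the nuclei with at least 3 Pcna counts, 6 of 45 other members were at least 1.5-fold higher than in those with none (13.3%, against 0.766% of 14228 genes) and 0 were as much lower (against 1.43%). These counts moved with the setting. With nuclei thinned to 3000 counts, 11 were higher (against 5.31%) and 4 lower (against 10.6%). With at least 4 Pcna counts, 6 were higher (against 2.84%) and 2 lower (against 6.57%). The 45 lay outside the Pcna peak and had at least 10 CPM in the nuclei without Pcna counts. The median log2 ratio of the 45 was 0.19, against 0.00 for all genes, and 13 of the 45 exceeded the 95th percentile of all genes, 0.36. Uhrf1 held 112 CPM in the Pcna-rich nuclei and 52.4 CPM in those without, a log2 ratio of 1.09 (95% counting interval 0.87 to 1.32). Mcm6 held 73.1 and 44.3 CPM (0.72, interval 0.44 to 0.99), and Dnmt1 73.4 and 47.1 CPM (0.63, interval 0.36 to 0.91). The others past 1.5-fold were Gins3 (0.78, interval 0.28 to 1.29), Mcm4 (0.74, interval 0.30 to 1.19) and Cdc6 (0.60, interval 0.15 to 1.06). These 6 were picked by their ratios in this same comparison, so where their intervals lie is no further support. The intervals cover counting error in 1 library and leave out extra spread over nuclei, which at 48 h was 1.61 for Uhrf1 and 1.20 for Mcm6. In the 48 h library as a whole Mcm4, Gins3 and Cdc6 had promoter log2 ratios to 0 h of -0.51, 0.05 and -0.30. The promoter peak of Mcm4 also holds a start site of Prkdc, so its values are joint counts. At the lower end Pole had a ratio of -0.20. The genes of the 2 classes came from the same peaks of the same library, so length does not enter this comparison.

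Hepatocyte and endothelial markers were close in both classes, while the Kupffer and myeloid sum was higher in the Pcna-rich nuclei. Of those 7 myeloid markers, 2 were higher there. Without nuclei richer in nonparenchymal markers, 4 of 45 members were at least 1.5-fold higher (against 0.808% of all genes), with a member median of 0.14. The part of cell composition in the class difference was not tested further. The hepatocyte markers summed to 5882 CPM in Pcna-rich nuclei and 6154 CPM in nuclei without, endothelial markers to 248 and 254 CPM, and Kupffer and myeloid markers to 80.6 and 68.4 CPM. Per nucleus the median share of counts in hepatocyte markers was 0.568% and 0.608%, and that in endothelial markers 0.0222% and 0.0228%. The medians of Kupffer and myeloid, cholangiocyte and lymphocyte markers were 0 in both.

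**Figure D5:**
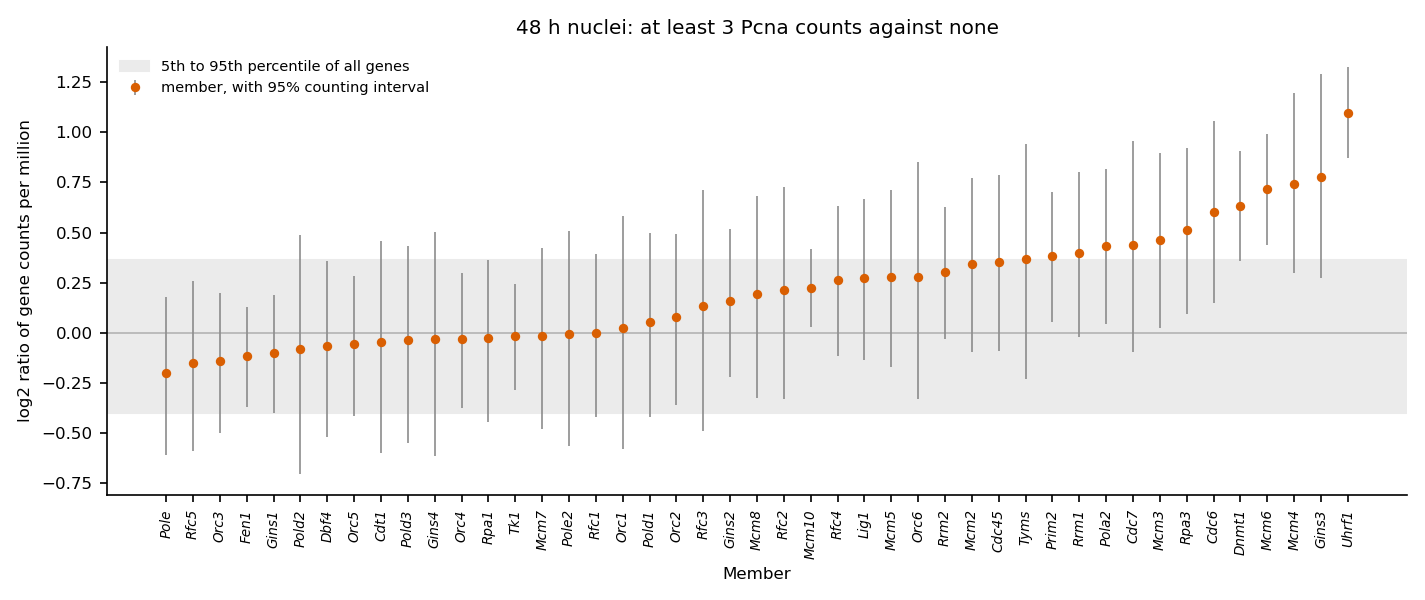
The log2 ratio of gene CPM between 48 h nuclei with at least 3 Pcna counts and those with none, for 45 members in rising order, with 95% counting intervals; the grey band spans the 5th to the 95th percentile of all genes. Uhrf1 lies highest, at 1.09, and 13 members lie above the band.

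Among 47 other genes of S phase and its control, 46 had enough promoter counts, all except Pclaf. Their median log2 ratios were -0.15, -0.01 and 0.31 at 48, 72 and 96 h, close to those of the members. At 48 h 1 was at least 1.5-fold higher (against 11.7% of all genes) and 2 were lower (against 9.4%). The higher one was Donson, a protein that stabilizes forks, with 29.7, 50.8, 28.4 and 41.2 CPM, highest at 48 h, on covered lengths of 4021, 8801, 1667 and 1245 bp, and per kb its ratio at 48 h turned to -0.36. Clspn, the adaptor of the replication checkpoint, was next, with 8.01, 11.6, 13.8 and 15.9 CPM, higher in each later library before any centring on all genes. The lowest were Cdca5, a protector of sister chromatid cohesion, with 11.4, 6.66, 6.96 and 11.6 CPM, and Pold4, the smallest subunit of polymerase delta, with 19.1, 12.4, 15.5 and 16.7 CPM. After centring on all genes both were under 1.5-fold, at log2 ratios of -0.58 and -0.45. In the Pcna-rich nuclei at 48 h, Clspn was at 24.1 CPM against 13.1 CPM, and 1 of 44 such genes was at least 1.5-fold higher (against 0.766% of all genes).

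These values describe 4 libraries, and intervals cover counting error only. In 18 of 48 members a promoter peak also held a start site of another gene in at least 1 library, so that their counts are joint counts.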

How the data were processed

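Deposited values were whole-number counts of transposase cut sites per peak and barcode; the authors made them with Cell Ranger ATAC (version 1.1.0 per the file headers, build mm10 per the submitters' processing notes), which aligned reads, removed duplicates and called peaks library by library. The study's nucleus filter is described without cutoffs. Barcodes with at least 1000 counts were kept and summed, no doublet caller was run, and 5% of the deepest nuclei were left out as an alternative. Between 87.3% and 88.6% of values were even, since a fragment adds a count at each end, so exact Poisson and conditional binomial 95% intervals were computed on counts divided by 2. GENCODE vM21 gave genes and start sites. Peaks within 1 kb of a TSS, or over the gene and 2 kb upstream, were summed per gene and scaled to 1000000 kept counts (CPM). Genes with a mean of at least 5 CPM entered ratios, with a pseudocount of 0.5 CPM, which understates the change of low genes; past the threshold means at least 1.5-fold. No test was possible with 1 library per time point. The members and lists were chosen with earlier results of these data known. Named members were the highest and lowest of each of 9 roles at 48 h, any at least 2-fold from 0 h, and Pcna, Mcm2 and Rrm2; of the other S phase genes, the 2 highest and 2 lowest. Orc2, Mcm8, Dbf4, Gins2, Gins4, Pole, Rfc3, Rfc4 and Tyms fall outside this rule and were chosen after their values were seen. Gene body coverage, spread over nuclei and the Pcna classes were added after the data had been seen, and members named there were chosen after their values were seen. Ratio and interval code was tested on simulated data. Promoter sequences came from RefSeq (GRCm38.p6), taking for each gene the start nearest to the centre of a 0 h peak. Work used Python 3.11.15 with numpy 2.4.6, scipy 1.17.1, pandas 2.3.3 and matplotlib 3.10.9.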

Additional observations from a re-analysis of the deposited data

How the results depend on the processing

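No paired analysis was possible because each time point had 1 library, and none could be left out. Of the values that answer a comparison, 134 stayed within their limits under the alternatives and 34 moved; of the values of single genes 421 stayed, 71 moved and 10 changed sign. Per kb of covered length, the median promoter ratio of the members was -0.36 at 48 h and 1.03 at 96 h (all genes -0.23 and 1.09), with 0 members higher (against 2.55% of all genes) and 12 lower (8.88%) at 48 h, 2 lower at 72 h (2.36%), and 41 higher (88.4%) and 0 lower (0.0441%) at 96 h; the gene medians were -0.37 and 1.08. Under that scaling the ratios of Mcm6 (-0.055), Pcna (-0.73), Rrm2 (-0.80), Uhrf1 (-0.89) and Donson (-0.36) at 48 h, Pola2 (0.47), Pcna (-0.34) and Tk1 (0.043) at 72 h, and Tk1 (0.43) and Mcm10 (0.69) at 96 h changed sign. These 10 are not every change of sign per kb, since Rfc4 at 72 and 96 h and Pola2 at 96 h also turned from lower to higher. Shrinking peaks enter the denominator by construction. With covered length kept (at most 25% longer or 20% shorter), 0 members were higher at 48 h (2.12%) and 2 lower at 72 h (4.72%), the 5 members left at 96 h had a median of 0.53 with 2 higher (69%) and 0 lower (0.0694%; all genes' median 0.81), and the gene median at 48 h was -0.18. Centred on all genes, the median at 48 h was 0.049 with 0 lower (5.04%), 5 were higher (18%) and 3 lower (15.2%) at 72 h, and 4 were higher at 96 h (13.9%). In shared peaks 0 were lower at 48 h (6.83%; Cdc45 -0.55) and 6 higher at 96 h (16.1%). With a pseudocount of 2 CPM 0 were lower at 48 h (8.04%), and 2 were (9.85%) when the deepest 5% were left out. As the share of nuclei with a count, thinned to 1000, 4 were lower at 48 h (15.8%), 5 higher at 72 h (12.1%) and 6 higher at 96 h (12.6%). Gene medians without peaks near a TSS were 0.37, 0.28 and -0.15 at 48, 72 and 96 h over 18 members. The matched difference at 48 h was 0.0060 with length matched in both libraries. Alternatives chosen after seeing the data: a gain of at least 5 points in gene body coverage gave 13 of 47 members at 48 h (22.1%) and 2 at 72 h (8.79%), and thinning to 3000 gave 11 members higher in Pcna-rich nuclei (all genes 5.31%) and 4 lower (10.6%), against 6 higher (2.84%) and 2 lower (6.57%) with at least 4 counts, 4 higher (0.808%) without nonparenchymal-rich nuclei and 5 higher (1.07%) without the deepest 5%. Of the 44 other S phase genes, 2 to 3 were higher there and 0 to 5 lower. The cause of these differences was not tested. Depth limits the 96 h library most, with a median of 3681.5 counts per nucleus.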
